A study of Homo sapiens with 38 samples.

Results

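Confluent IMR90 fibroblasts with a hairpin against RB or p107 (4 arrays) were compared with confluent IMR90 fibroblasts with a hairpin against p130 or the empty MLP vector (4 arrays). These 8 arrays are part of 38 in the series and of 32 in experiment 1. IMR90 cells are human lung fibroblasts, and their medium held 10% serum unless otherwise stated. Each of the 4 groups had n = 2: shRB confluent, shp107 confluent, shp130 confluent and vector confluent. The same 4 groups exist in experiment 1 as growing cells, as cells in 0.1% serum and as cells made senescent with ras. The labels name the confluent state quiescent and give 1 hairpin name per target. No label states that replicates were separate cultures, so every p-value measures only the spread between these arrays, which may be technical.

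The 2 classes were chosen by the log2 values of the confluent arrays themselves. They join shRB with shp107, and shp130 with the vector. The values at confluence are therefore a description of 2 sets of cultures, with no test, and are not read as an effect of RB or p107 hairpins. The labels do not say how long each culture stayed confluent, how dense it was or when its medium was changed. Hairpin and such features of a culture cannot be told apart here.

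RB, p107 and p130 are the pocket proteins. They bind E2F transcription factors and hold down the genes of DNA replication and mitosis when cells leave the cycle, and p130 is the member best known from quiescent cells. Fibroblasts that stop dividing at high density keep a reversible arrest. In the same cells, NF-kB and AP-1 factors switch on cytokine genes, while TGF-beta and serum response factor drive collagen and smooth muscle actin genes.

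The short account is that many chemokine, interleukin and ID genes were far lower in confluent shRB and shp107 cells than in shp130 and vector cells. Some matrix protease and prostaglandin enzyme genes were far lower too, while others of these families were alike or higher. Smooth muscle actin and part of the contractile and matrix genes were higher. Cell cycle genes met the class rule near or under the share over all genes (10.1%), which is no result about them. Part of the same difference passed a test in growing cells, and little of it did in low serum. In senescent cells class genes were called along and against their direction at confluence in like numbers. Both the higher and the lower class genes were there called higher more often than lower.

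All values are log2 values from Affymetrix arrays, 1 per probe set, so a difference of 1 is 2-fold. Values under 5 lie near the array background, and a difference against such a value understates the true one. Array medians lay between 3.27 and 3.41, and how many arrays there are sets the precision. The correlation between replicates was 0.9795 to 0.9948 and lowest for confluent vector cells. Of the fibroblast markers all 10 exceeded 5 on some confluent arrays, and the lowest single value was 4.74. Their summed log2 values were 116.75 to 118.32 in shRB and shp107 and 109.02 to 114.58 in shp130 and vector. None of 5 epithelial and none of 4 blood markers was above 5 on any confluent array, with highest values of 3.76 and 3.52. Of 5 endothelial markers only TEK was above 5, and the endothelial sums overlapped between classes. In bulk RNA, fewer cells of a kind and less RNA per cell cannot be told apart.

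Promoters are shown here for some genes of the inflammatory and contractile groups on which the results turn, chosen for their motifs and not as the widest differences. The first set holds chemokines that bind CXCR2, interleukin 6 and inhibitors of NF-kB, all of them lower in shRB and shp107 cells. Capitals mark matches to the kappa B consensus, the site that NF-kB binds, on either strand. Each line gives the 120 bases before the start of the gene, 5′ to 3′ on the gene's strand, from RefSeq in build GRCh38.p14.
CXCL1 (chr4:73869273-73869392, plus strand): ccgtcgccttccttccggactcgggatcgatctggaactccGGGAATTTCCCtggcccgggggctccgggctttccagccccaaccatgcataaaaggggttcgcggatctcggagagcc
CXCL2 (chr4:74099196-74099315, minus strand): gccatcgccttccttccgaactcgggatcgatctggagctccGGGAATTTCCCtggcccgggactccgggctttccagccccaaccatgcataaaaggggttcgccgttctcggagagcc
CXCL3 (chr4:74038690-74038809, minus strand): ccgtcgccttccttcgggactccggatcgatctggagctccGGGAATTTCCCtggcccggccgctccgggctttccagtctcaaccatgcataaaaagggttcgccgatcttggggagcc
CXCL5 (chr4:73998678-73998797, minus strand): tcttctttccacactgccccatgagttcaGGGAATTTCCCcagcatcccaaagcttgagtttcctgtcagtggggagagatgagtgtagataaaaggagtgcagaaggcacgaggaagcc
CXCL6 (chr4:73836558-73836677, plus strand): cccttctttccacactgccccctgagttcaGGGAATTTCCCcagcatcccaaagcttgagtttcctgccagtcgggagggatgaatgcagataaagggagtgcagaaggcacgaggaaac
IL6 (chr7:22727080-22727199, plus strand): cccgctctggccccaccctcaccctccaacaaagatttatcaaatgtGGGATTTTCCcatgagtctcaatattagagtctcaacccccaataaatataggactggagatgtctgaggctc
TNFAIP3 (chr6:137867139-137867258, plus strand): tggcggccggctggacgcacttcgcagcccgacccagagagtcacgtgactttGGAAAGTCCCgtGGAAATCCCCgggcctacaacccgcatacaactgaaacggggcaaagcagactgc
NFKBIA (chr14:35404750-35404869, minus strand): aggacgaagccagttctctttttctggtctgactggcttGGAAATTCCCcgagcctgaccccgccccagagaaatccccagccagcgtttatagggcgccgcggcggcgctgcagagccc

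The 5 CXCL promoters held the same stretch, in which 2 matches overlap by all but 1 base. Its first base lay 91 bases before the start in CXCL5, 90 in CXCL6, 79 in CXCL1 and CXCL3, and 78 in CXCL2. The neighbouring gene CXCL8, which was also lower, had no match to these letters in its window. Of 14 inflammatory genes that parted the classes and had a promoter in the table, 7 held the consensus in the 300 bases from 250 before to 50 after the start. The consensus was found in 5.72% of all 27305 promoters and in 6.61% of the 7123 promoters of genes tested. The share was 8.91% of 348 promoters of lower class genes and 9.25% of 346 promoters of higher class genes. The consensus was thus about as frequent on both sides of the class difference, and a match is a description of the letters only.

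The second set shows a contractile gene that was higher in shRB and shp107 cells. ACTG2 encodes smooth muscle gamma actin, and capitals mark 2 CArG boxes, the sites that serum response factor binds.
ACTG2 (chr2:73892888-73893007, plus strand): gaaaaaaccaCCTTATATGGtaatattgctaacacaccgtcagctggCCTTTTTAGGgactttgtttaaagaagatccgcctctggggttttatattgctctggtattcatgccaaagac
A CArG box was found in 1.29% of all promoters, in 1.08% of those of genes tested and in 2 of 7 contractile genes that parted the classes.

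The hairpin targets were examined first. RB1 had log2 values of 4.55 and 4.78 in confluent shRB cells, and 9.42 to 10.03 on the 6 other confluent arrays. The hairpin group lay far below all others, so RB1 parts the classes through shRB alone. RBL2, the gene of p130, had 5.56 and 5.37 in confluent shp130 cells, against 8.29 and 8.34 in vector cells. RBL1, the gene of p107, had 3.42 and 3.02 in shp107 cells, against 3.29 and 4.11 in vector cells. These dim values overlap, and the knockdown of p107 cannot be checked with these probe sets.

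The distance between 2 arrays was taken as the SD, over the 8511 genes tested, of their log2 difference. At confluence it was 0.828 to 1.08 for the 16 pairs of arrays from different classes. It was 0.366 to 0.678 for the 8 pairs of different hairpins in 1 class, and 0.32 to 0.794 for the 4 replicate pairs. No pair within a class was as far apart as any pair across classes. In growing cells the pairs across the same hairpin sets spanned 0.349 to 0.553, and in low serum 0.343 to 0.548, ranges that overlap those within sets. In senescent cells pairs across sets spanned 0.522 to 0.921 and pairs of different hairpins within a set 0.494 to 1.03, so no such split by set was seen there.

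**Figure D1:**
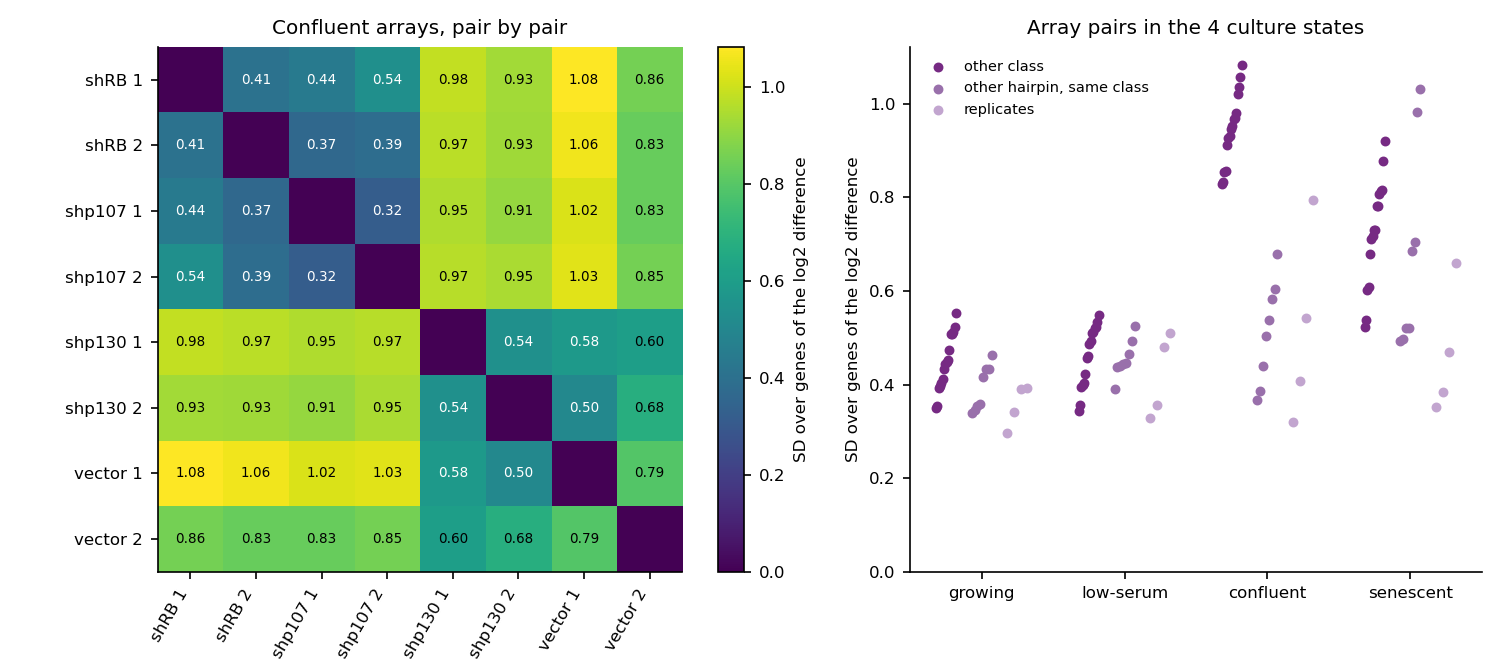
Left, distance between each pair of the 8 confluent arrays, as the SD over 8511 genes of the log2 difference. Right, the same distance for array pairs of the 4 culture states, with pairs sorted by size within each kind. Confluent pairs across classes (0.828 to 1.08) lie above all other confluent pairs.

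Of 8511 genes, 859 differed at least 2-fold at confluence with no overlap between the 4 arrays of each class (10.1% of those tested). Of these, 423 were higher in shRB and shp107 cells (4.97%) and 436 were lower (5.12%). They are called class genes below, and counts of them in a list are read beside these shares. At 4-fold, 117 were higher and 152 lower, and at 16-fold 7 were higher and 40 lower. The widest differences thus lay on the lower side, while the counts at 2-fold were near equal. The median difference over all genes was -0.04. Of the class genes, 810 passed the same filter on low values in the 24 other arrays of experiment 1, and 326 of the higher and 301 of the lower ones were above 5 on at least 2 arrays of both classes.

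The inflammatory genes carried many of the widest differences. CXCL5, a chemokine that draws neutrophils, had 4.38 and 4.08 in shRB and 4.05 and 3.99 in shp107, against 12.10 and 12.04 in shp130 and 12.14 and 10.90 in vector cells. Its difference was -7.67, with shRB and shp107 near background. CXCL3 differed by -7.50, CXCL2 by -6.76 and CXCL6 by -6.63, each without overlap. CXCL1 was well above background in both classes, with 9.54, 8.62, 8.29 and 8.22 in shRB and shp107 and 12.34, 12.32, 12.55 and 11.67 in shp130 and vector. CXCL8, the chemokine interleukin 8, differed by -2.37 and was likewise bright in both. The probe sets of CXCL2, CXCL5 and CXCL8 are of a kind that Affymetrix marks as able to bind related transcripts, so these paralogs are not cleanly separated.

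Interleukin genes followed the chemokines. IL6 had 7.99, 6.95, 7.43 and 7.22 in shRB and shp107, against 12.72 and 13.08 in shp130 and 13.38 and 10.12 in vector cells. The second vector array lay about midway between its replicate and the other class. IL11, a cytokine that TGF-beta induces in fibroblasts, had 5.02 to 5.33 in shRB and shp107 and 11.28 to 12.75 in shp130 and vector. IL1B differed by -5.82 and IL1A by -4.88. IL13RA2, a decoy receptor for interleukin 13, had the widest difference of all: 2.84, 2.88, 2.96 and 3.37 in shRB and shp107, against 12.38 and 12.58 in shp130 and 12.75 and 11.54 in vector. Of 20 secreted inflammatory factors tested, 15 were lower by the class rule, 1 was higher and 4 did not part, with a median difference of -3.84 against -0.04 over all genes. The higher one was CXCL12, a chemokine of resting stroma, at 2.04.

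NF-kB subunits and feedback genes differed less. Among 14 subunits and feedback targets, 6 were lower and none higher, with a median of -0.74, beside 5.12% lower class genes over all genes. TNFAIP3, which encodes the inhibitor A20, had 7.28, 6.85, 7.69 and 7.13 in shRB and shp107, against 9.73, 9.89, 10.37 and 8.53 in shp130 and vector. NFKBIZ differed by -1.91 and NFKBIA by -1.17, while RELA, an NF-kB subunit, differed by -0.39 and did not part. BCL2A1, an anti-apoptotic target, differed by -6.42. The feedback genes were expressed in both classes, unlike several of the chemokines.

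Part of the prostaglandin synthesis genes were also lower. PTGS2, the inducible cyclooxygenase, had 4.45, 4.20, 4.29 and 4.08 in shRB and shp107, against 12.79 and 12.57 in shp130 and 12.92 and 10.38 in vector. PLA2G4A, the phospholipase that frees arachidonic acid, differed by -4.13, and PTGES, a prostaglandin E synthase, by -4.15. These 3 successive enzymes were all without overlap. PTGIS, the prostacyclin synthase, was higher by 2.60, with 4.75 to 7.98 in shRB and shp107 and 3.20 to 4.57 in shp130 and vector. Of 14 genes of this list, 4 were lower, 1 was higher and 9 did not part (median -0.51). Over all genes 5.12% were lower and 4.97% higher class genes. PTGDS was higher by 0.87 without overlap but under the 2-fold rule, and PTGES2 and PTGES3 differed by -0.36 and -0.05. The lists share some members: PTGS2 also counts in the NF-kB list, and BMP2, LIF, IER3 and TGFB2 each count in more than a single list.

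Secreted proteases and growth factors were lower in part. MMP3, stromelysin 1, had 3.56, 4.38, 3.62 and 3.52 in shRB and shp107, against 12.27, 12.71, 12.99 and 11.39 in shp130 and vector, a difference of -8.57. MMP1, interstitial collagenase, was bright in both classes and differed by -2.30. ADAMTS5, an aggrecanase, differed by -5.25. Of 19 proteases and inhibitors, 6 were lower and none higher, with a median of -0.64, beside 5.12% lower class genes over all genes. MMP19 was higher by 0.99 without overlap but under the 2-fold rule. MMP2 differed by 0.36 and the inhibitor TIMP1 by 0.05. EREG, the EGF receptor ligand epiregulin, had 2.96 to 3.40 in shRB and shp107 and 10.17 to 10.40 in shp130 and vector, with both vector arrays inside the narrow upper range. FGF7, BMP2, STC1, FGF2, NRG1, IGFBP2 and TGFB2 differed by -2.69 to -4.36, and 10 of 24 growth factor genes were lower (5.12% over all genes). On the higher side, 3 parted (4.97% over all genes): GAS6 by 3.8, PDGFD by 3.27 and IGFBP6 by 2.11.

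Immediate early genes and ID genes also parted the classes. NR4A2, an orphan nuclear receptor induced within minutes of a stimulus, had 5.29, 5.33, 4.81 and 4.81 in shRB and shp107, against 12.16, 11.76, 11.86 and 12.27 in shp130 and vector. FOS, the AP-1 subunit, had 3.45 to 3.76 in shRB and shp107 and 5.27 to 7.60 in shp130 and vector. Of 17 serum response genes, 6 were lower and none higher, beside 5.12% lower class genes over all genes. FOSL1 and JUND, other AP-1 subunits, differed by -0.16 and -0.12. The AP-1 subunit JUN was higher by 0.31, KLF2 by 0.93 and KLF6 by 0.82, without overlap but under the 2-fold rule. In this list 4 differences were above 0 and 13 below. ID1, an inhibitor of basic helix-loop-helix factors and a target of BMP signalling, had 5.58, 5.59, 4.85 and 5.14 in shRB and shp107, against 10.35, 10.15, 9.47 and 10.44 in shp130 and vector. ID3 differed by -4.23, ID4 by -2.22 and ID2 by -1.36, and SMAD7, a BMP and TGF-beta feedback inhibitor, by -2.10. Of 13 BMP and ID genes, 6 were lower and none higher (median -1.07), again beside 5.12% lower over all genes.

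Single genes of other functions were also lower. PDK4, which restrains entry of pyruvate into the citrate cycle, had 3.29 to 3.57 in shRB and shp107, against 10.44 and 8.99 in shp130 and 9.03 and 11.03 in vector. RGS5, a brake on G protein signalling known from pericytes, differed by -7.90. C3, the central complement protein, had 3.54 to 4.06 in shRB and shp107 and 6.97 to 9.75 in shp130 and vector. Of 11 complement and antigen presentation genes it was the 1 lower class gene, 1 other was higher (SERPING1 by 1.13) and 9 did not part. Beside 10.1% class genes over all genes, these counts are no result about the list. NPC1, which exports cholesterol from lysosomes, had 5.39 to 5.52 in shRB and shp107 and 8.15 to 8.93 in shp130 and vector, and the 16 cholesterol synthesis genes held no class gene (median -0.03).

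Contractile genes were higher in shRB and shp107 cells. ACTA2, smooth muscle alpha actin, had 12.11, 12.19, 12.12 and 12.11 in shRB and shp107, against 9.29 and 9.61 in shp130 and 8.86 and 10.81 in vector. ACTG2 had 12.09 to 12.45 in shRB and shp107 and 8.22 to 10.10 in shp130 and vector. Calponin (CNN1) differed by 2.65, leiomodin (LMOD1) by 1.96 and transgelin (TAGLN) by 1.90. Of 20 contractile and myofibroblast genes, 9 were higher and none lower, beside 4.97% higher class genes over all genes. In this list 19 differences were above 0 and the median was 0.92. The list mean was 10.02 to 10.25 on shRB and shp107 arrays and 8.66 to 9.08 on shp130 and vector arrays.

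Matrix genes leaned the same way with smaller sizes. Periostin (POSTN) had 12.94, 12.94, 12.66 and 12.73 in shRB and shp107, against 10.35, 10.54, 9.50 and 11.53 in shp130 and vector. Biglycan (BGN) differed by 2.86, fibulin 1 (FBLN1) by 2.31 and COL5A1 by 1.92. The main fibrillar collagen genes COL1A1 and COL1A2 differed by 0.53 and 0.44, under the 2-fold rule. Of 34 matrix genes 9 were higher, and 2 were lower, COL14A1 by -3.08 and COL8A1 by -1.11. Over all genes 4.97% were higher and 5.12% lower, so the lower count is near that share. FAP, a surface protease of activated fibroblasts, had 10.95 to 11.15 in shRB and shp107 and 6.67 to 8.01 in shp130 and vector.

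The widest higher genes were of mixed function. TNFSF4, the ligand of OX40, had 9.72, 9.45, 10.04 and 9.90 in shRB and shp107, against 4.62, 4.25, 4.33 and 4.36 in shp130 and vector. SULF1, a sulfatase that trims heparan sulfate outside the cell, differed by 5.0. MEST, an imprinted gene of the mesoderm, had 11.39 to 12.02 in shRB and shp107, against 6.22 and 5.66 in shp130 and 5.39 and 9.33 in vector. GAS6, a ligand of AXL that was found as a growth arrest gene, had 11.09 to 11.69 in shRB and shp107 and 6.81 to 8.19 in shp130 and vector. Its receptor AXL differed by 1.24. Among amino acid genes, asparagine synthetase (ASNS) was higher by 2.95, PHGDH by 2.51 and PSAT1 by 1.86, the last 2 in serine synthesis. The same list held ATF3 and chaperone genes such as HYOU1 on the lower side. Its 24 genes gave 5 higher and 5 lower, beside 4.97% and 5.12% over all genes, and a median of -0.08.

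**Figure D2:**
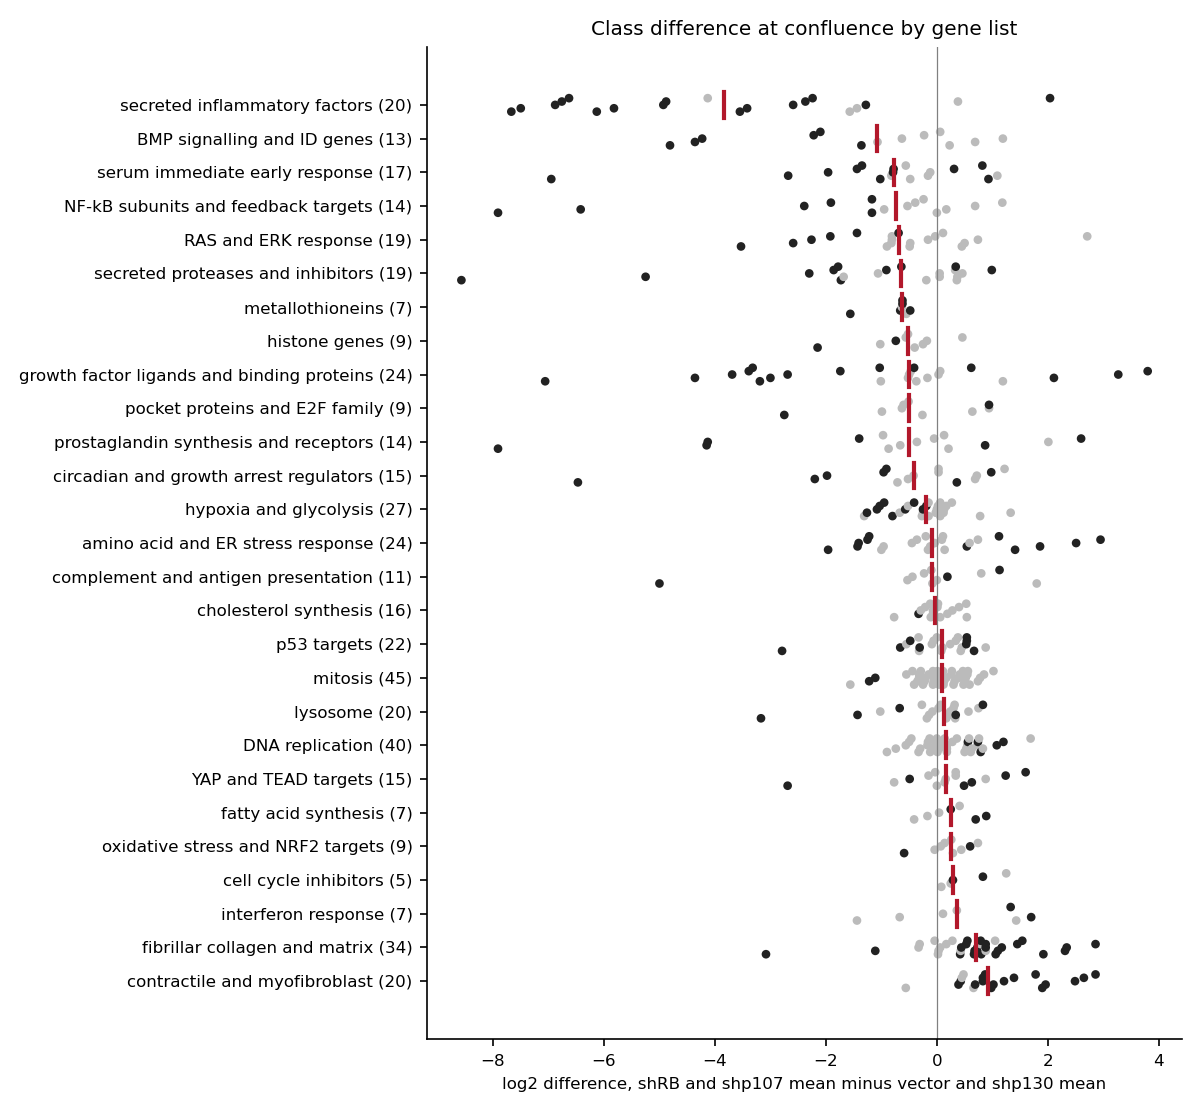
Class difference at confluence for each tested member of 27 gene lists, shRB and shp107 minus vector and shp130, in log2 units. Black points do not overlap between the 4 and 4 arrays, grey points do, and red bars are list medians. Secreted inflammatory factors have the lowest median (-3.84) and contractile genes the highest (0.92).

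Few cell cycle genes parted the classes. Of 40 DNA replication genes, 2 were higher (PRIM2 by 1.08, RFC5 by 1.20) and none lower, with a median of 0.16. RFC5 owed its size to a low value of 5.95 on the first shp130 array, beside 9.10 to 9.28 on the other shp130 and vector arrays. Of 45 mitosis genes, 2 were lower (CKS1B by -1.11, KIF18A by -1.22) and none higher, with a median of 0.09 that was -0.08 without the first vector array. Beside 4.97% higher and 5.12% lower class genes over all genes, these counts are near or under the background and are no result about these lists. No cell cycle inhibitor met the class rule: CDKN2A differed by 0.83, CDKN2B by 1.25 and CDKN1A, which encodes p21, by 0.08. The mean of the mitosis list was 5.35 to 6.07 on shRB and shp107 arrays and 5.02 to 6.28 on shp130 and vector arrays, which overlap.

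Within each class the hairpins were compared with limma, a moderated linear model over all 8511 genes, with Benjamini-Hochberg adjusted p-values and a call at an adjusted p under 0.05. The classes were seen in these same 8 arrays by the likeness of the hairpins within each, so low counts of calls within a class were favoured by that choice and are no evidence of likeness. Between shRB and shp107 at confluence, 2 genes were called (0.0235% of those tested), and 609 had an unadjusted p under 0.05. RB1 was lower in shRB cells by the fit (-4.78 ± 0.36, SE, adjusted p = 8.65e-08). SLC2A1, the glucose transporter GLUT1, had 5.76 and 6.11 in shRB and 7.57 and 7.87 in shp107 cells (-1.78 ± 0.27, adjusted p = 0.00562). Its call was lost without the first shRB array, without the second shp107 array, with the mean of all probe sets and in a fit on confluent arrays alone. The count of calls was 7 without the second shRB array and 1 without the second shp107 array.

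Between shp130 and vector at confluence, 2 genes were also called (0.0235%), and 456 had an unadjusted p under 0.05. RBL2 fell by 2.85 in shp130 cells (SE 0.26, limma adjusted p = 4.79e-06). ZNF331, a zinc finger gene, had 4.82 and 5.14 in shp130 and 5.83 and 6.37 in vector cells (-1.12 ± 0.19, adjusted p = 0.0345), and its call was lost under 6 of the alternatives. The count rested on the vector arrays: 223 genes were called without the first vector array, 45 without the second and 11 without the second shp130 array.

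The second vector array stood between the classes. The class genes were found again without each array in turn, and the array left out was placed on a scale from 0 (mean of shp130 and vector) to 1 (mean of shRB and shp107). The second vector array had a median position of 0.35, with 406 of 1093 genes nearer the other class. The first vector array was at -0.11, the shp130 arrays were at 0.00 and 0.07, and the shRB and shp107 arrays were at 0.94 to 0.99. The array was not midway for all genes. CCL20, a chemokine, had 12.03 on the first vector array and 5.87 on the second, and RARRES1, a retinoid-induced gene, had 4.38 and 9.05. NR4A2 (11.86 and 12.27), KYNU (10.02 and 10.00) and EREG (10.32 and 10.29) were alike on both. Inflammatory genes had a median position of 0.50 on it, contractile genes 0.20, and BMP and ID genes -0.05. It was 0.84 for RAS and ERK genes (7 of 9 nearer the other class) and 0.70 for hypoxia and glycolysis genes (5 of 5). The number of class genes was 1093 without this array and 852 to 931 without any other.

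The same contrast was then tested in arrays that were not used to see the classes, with a limma fit on the 24 growing, low-serum and senescent arrays. In growing cells 101 genes were called (1.19% of 8511), 39 higher and 62 lower in shRB and shp107. Of these, 74 were class genes from confluence, 73.3% of the genes called and 8.61% of the class genes, and all 74 had the same direction in both states, 26 higher and 48 lower. Both RB1 and RBL2, the hairpin targets, are among the genes called. Across the 8511 genes the class differences in growing and confluent cells correlated with r = 0.56 and rho = 0.41, a description over genes that share arrays. Of the higher class genes 371 of 423 were above 0 in growing cells, and of the lower ones 378 of 436 were below 0. Their medians were 0.34 and -0.30, against 0.01 over all genes, of which 4499 were above 0 and 4012 below.

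The count in growing cells depended on single arrays and hairpins. It was 44 without the first shp107 array, 52 without the first vector array, 55 without the second shRB array and 57 without the second shp130 array, of which 34 to 42 were class genes of the same direction. By pair, chosen after seeing the data, shRB against shp130 gave 149 calls (1.75%), of which 94 were class genes of the same direction. shRB against vector gave 40 (0.47%) with 23 such genes, and shp107 against shp130 gave 25 (0.294%) with 21. shp107 against vector gave none by limma (0%), with 162 genes at an unadjusted p under 0.05. No class gene was called in the opposite direction for any of the 4 pairs. The 4 pairs share arrays.

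Per array, growing cells formed a gradient more than 2 classes. CXCL8 had 6.45 and 6.23 in growing shRB cells, 7.70 and 10.60 in shp107, 11.42 and 11.54 in shp130, and 11.51 and 8.92 in vector cells (-3.10 ± 0.49, limma adjusted p = 0.00306). The second shp107 and second vector arrays thus crossed in order. IL6 had 5.73 and 6.29 in shRB, 6.83 and 8.23 in shp107, 10.10 and 10.32 in shp130 and 10.81 and 7.61 in vector (-2.94 ± 0.49, adjusted p = 0.00462), with the same 2 arrays between the rest. NR4A2 had 5.83, 5.62, 6.36 and 7.38 in shRB and shp107, against 9.26, 9.36, 8.96 and 7.97 in shp130 and vector, and the 4 and 4 arrays did not overlap (-2.59 ± 0.31, adjusted p = 0.000288).

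Other genes fell into different patterns in growing cells. EREG was high in growing shp130 cells alone, at 7.56 and 7.63, beside 3.45 to 4.48 on the 6 other growing arrays (-2.02 ± 0.18, limma adjusted p = 1.99e-05). ID1 had 7.48, 7.63 and 7.75 on the shRB and first shp107 arrays, and 10.06 on the second shp107 array, which lay among the 9.63 to 10.20 of shp130 and vector cells (-1.65 ± 0.35, adjusted p = 0.0226). MEST had 10.87, 11.32, 11.16 and 10.90 in shRB and shp107, against 8.44, 8.75, 9.24 and 10.73 in shp130 and vector, and rose in shRB and shp107 by the test (1.77 ± 0.31, adjusted p = 0.00543). CXCL5 was at background in all growing groups, at 2.94 to 4.50, and was not called. ACTA2 had 12.14 to 12.34 in shRB and shp107 and 11.93 to 12.26 in shp130 and vector, and was not called either.

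**Figure D3:**
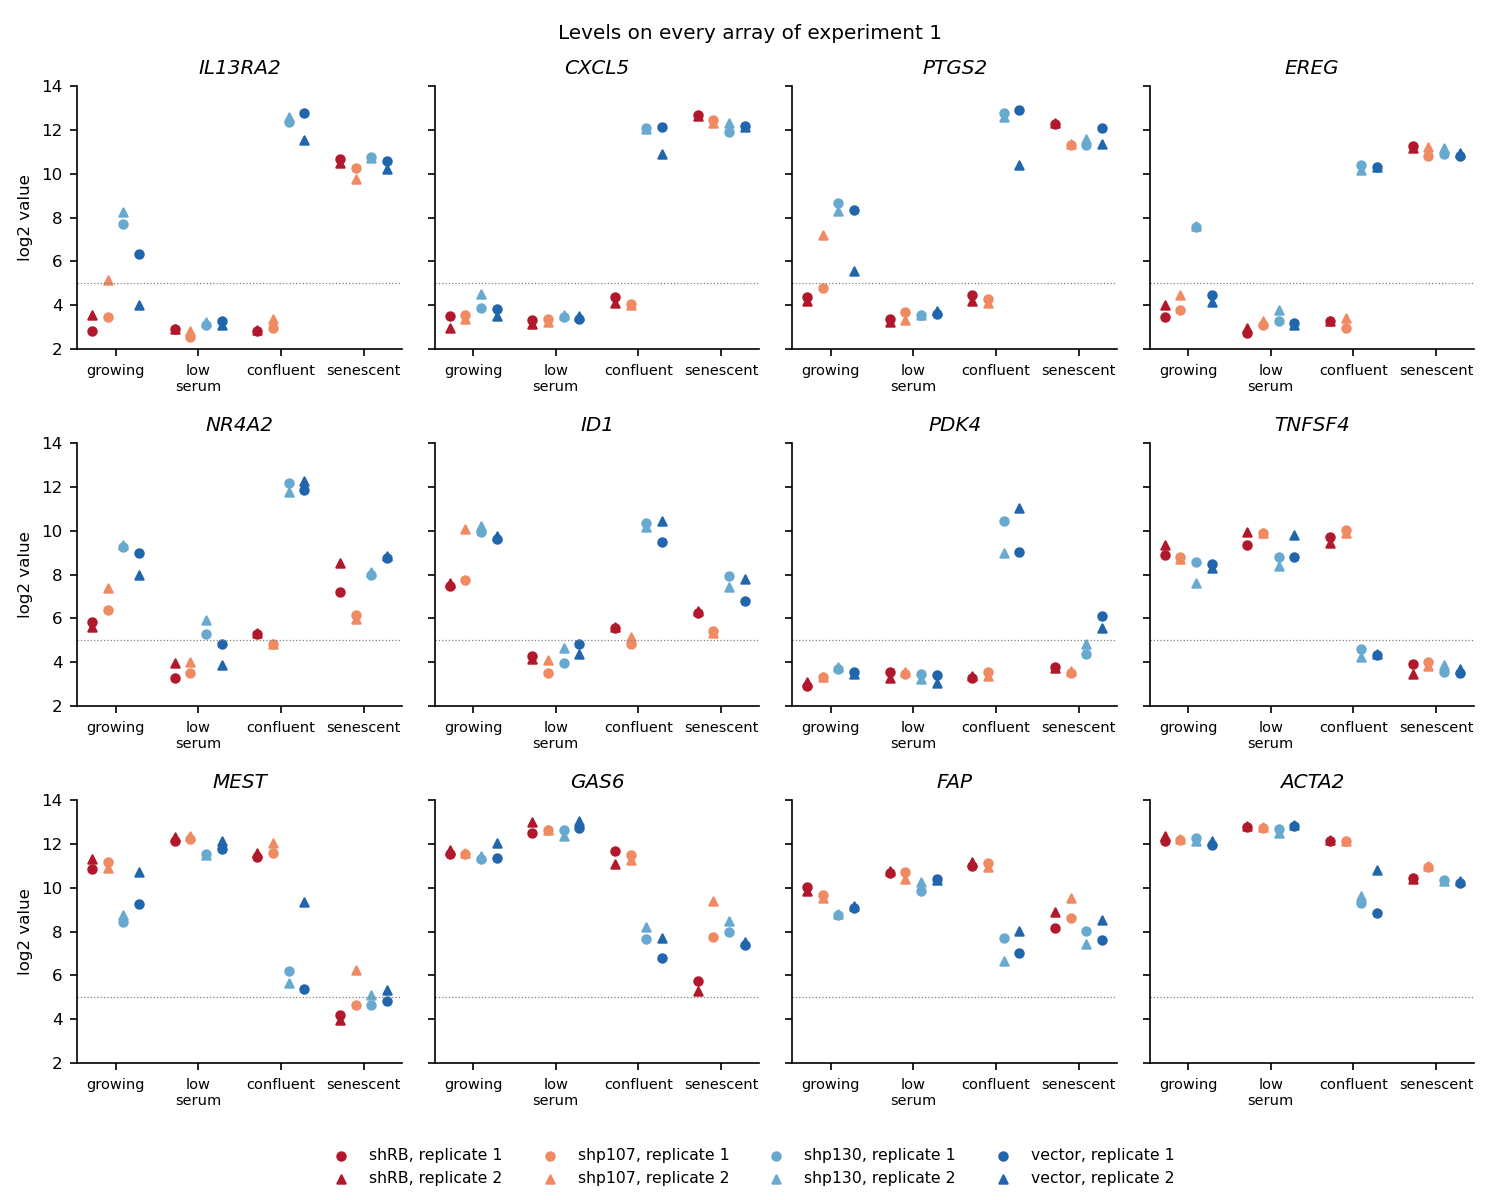
Log2 values of 12 genes on all 32 arrays of experiment 1, by culture state, with hairpins by colour and replicates by symbol; the dotted line is at 5. At confluence the shRB and shp107 arrays part from the shp130 and vector arrays, for CXCL5 at 3.99 to 4.38 and 10.90 to 12.14.

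By list, growing cells gave 7 lower and 1 higher inflammatory factor among 20, 5 lower growth factor genes among 24, 3 lower proteases among 19, 3 lower BMP and ID genes among 13 and 2 higher matrix genes among 34. No contractile gene of 20 was called. These counts are read against 0.728% lower and 0.458% higher calls over all genes. In the inflammatory list, arrays averaged 4.89 to 5.67 in growing shRB and shp107 cells and 5.44 to 6.46 in shp130 and vector cells, a narrow overlap. The contractile means were 10.24 to 10.31 in shRB and shp107 and 10.09 to 10.29 in shp130 and vector, which overlap.

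In low serum 7 genes were called (0.0822%), 5 of them lower and class genes of the same direction, and 2 higher. The lower ones were RB1, MMP1, COL4A6, MATN3 and TFPI2, and the higher ones TM6SF1 and GDF5. MATN3, a cartilage matrilin, had 4.24, 4.17, 4.50 and 4.27 in low-serum shRB and shp107 cells, against 7.28, 6.18, 5.59 and 4.76 in shp130 and vector (-1.66 ± 0.23, limma adjusted p = 0.00492). TFPI2, a serine protease inhibitor, had 9.26 to 10.32 in shRB and shp107 and 11.12 to 11.80 in shp130 and vector (-1.52 ± 0.20, adjusted p = 0.0022). Both parted without overlap here and at confluence, where TFPI2 differed by -2.52 and MATN3 by -5.98. The count was 3 without the second shp130 array, and 14, 29 and 41 without the second shRB, second vector and first shRB arrays. Without the first shRB array 30 were higher and 11 lower, which turns the majority, and 2 class genes were called against their direction at confluence. Of the higher class genes 293 of 423 were above 0 and of the lower ones 316 of 436 below 0, with medians of 0.13 and -0.14. Over all genes 3994 were above 0 and 4517 below, with a median of -0.02, and r across genes was 0.28. By pair, shRB gave 8 calls against vector (0.094%) and 27 against shp130 (0.317%), and shp107 gave 13 against vector (0.153%) and 5 against shp130 (0.0587%). Class genes of like direction were 1, 8, 1 and 3 of these. More of the calls were higher than lower against vector (6 and 2 for shRB, 12 and 1 for shp107) and for shRB against shp130 (19 and 8).

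**Figure D4:**
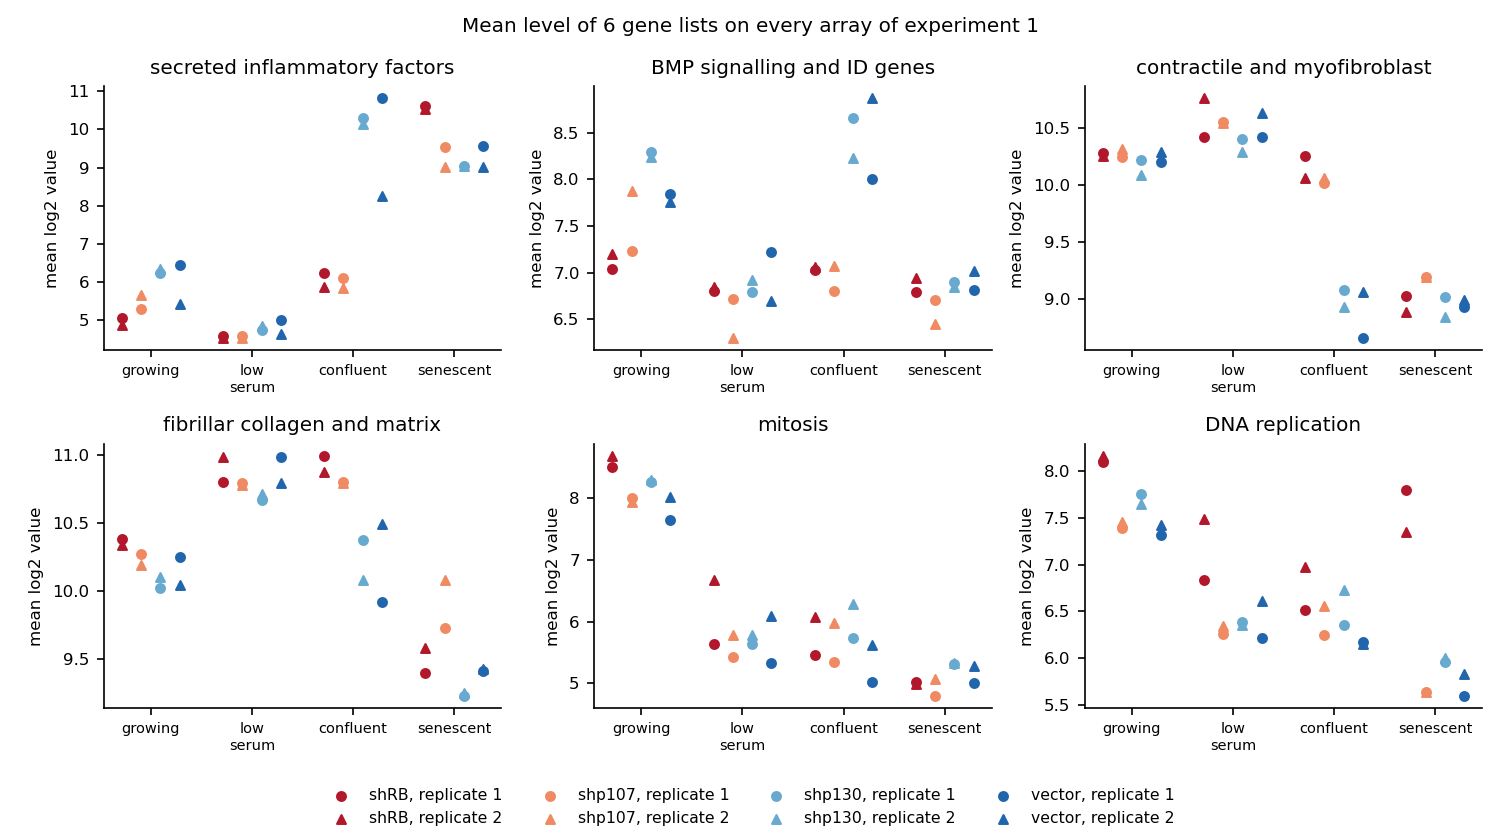
Mean log2 value of 6 gene lists on each of the 32 arrays of experiment 1, by culture state, with hairpins by colour and replicates by symbol. Inflammatory factors at confluence are at 5.85 to 6.23 in shRB and shp107 and at 8.25 to 10.82 in shp130 and vector, while the senescent arrays of all 4 hairpins are at about 9 or above.

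In senescent cells 1344 genes were called (15.8%), 812 higher (9.54%) and 532 lower (6.25%). Class genes made up 178 of them, which is 20.7% of the class genes. Of these 178, 92 kept the direction of confluence and 86 had the opposite one, and r across genes was -0.02. Both sets were called higher more often than lower: 70 and 21 of the higher class genes, 65 and 22 of the lower ones. Over all class genes the shares were 15.7% higher and 5.01% lower. Without the first shp130 array the count of all genes called was 813. Without the first shp107 array it was 1942, with 886 higher and 1056 lower, so the higher majority rests on that array. By pair, shRB gave 936 calls against vector (11%) and 1234 against shp130 (14.5%), and shp107 gave 691 against vector (8.12%) and 1560 against shp130 (18.3%). Here shRB and shp107 differed from each other: 2051 genes were called between them (24.1%), against 1 in growing cells (RB1, 0.0117%) and 5 in low serum (RB1, CCNE2, CDCA7, MCM5 and MCM6, 0.0587%; all but RB1 higher in shRB, 0.047%). The senescent count was 705 without the second shp107 array and 1178 without the second shRB array. The growing count was 5 without the first shp107 array. The low-serum count was 64 without the first shRB array (53 higher and 11 lower) and 47 without the second (3 higher and 44 lower), so its direction rests on single shRB arrays. It was 3 and 2 without the first and second shp107 arrays. A mean over both hairpins thus joins unlike groups in senescence. The inflammatory list gave 7 higher and no lower calls. Its mean was 10.57 in shRB, 9.27 in shp107, 9.05 in shp130 and 9.28 in vector, so the list as a whole stood high in shRB alone. CXCL6 rose under both hairpins, with 11.68, 11.89, 10.62 and 10.07 in shRB and shp107, against 8.58, 9.08, 9.57 and 9.17 in shp130 and vector (1.96 ± 0.23, limma adjusted p = 2.61e-05). Of 40 DNA replication genes 20 were higher and 2 lower, where the list mean was 7.57 in shRB, 5.64 in shp107, 5.98 in shp130 and 5.72 in vector, so shRB alone stood high.

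Whether the contrast itself differed between states was tested in the same fit. Between senescent and growing cells 337 genes were called (3.96%), 2.74% higher and 1.22% lower, and of the 436 lower class genes 70 had a higher class difference in senescence and 4 a lower one. Between low serum and growing cells 5 were called (0.0587%), all of them class genes. They were EREG, GDF15 and ID4, with a less negative class difference in low serum (0.0352%), and POSTN and the noncoding gene LINC01279, with a less positive one. This count was 30 without the second growing vector array, 11 without the second growing shp107 array and 9 without the second low-serum vector array. The senescent count was 170 to 216 without any of 7 single arrays (either shRB or shp130 array of growing cells, the first growing vector array, the second senescent vector array or the first senescent shp130 array) and 938 without the first senescent shp107 array, with 350 higher and 588 lower, so that the higher majority turned. The difference between confluent and other states was not tested, since the classes were seen at confluence.

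**Figure D5:**
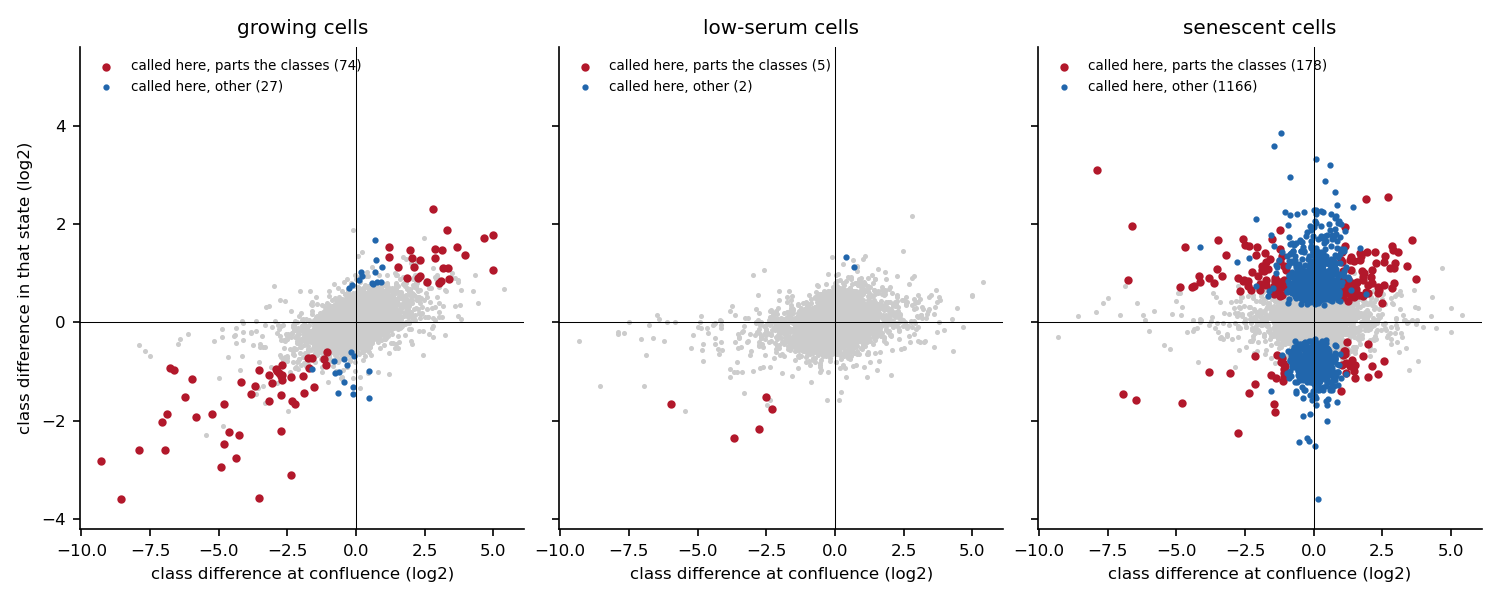
Class difference of each of 8511 genes at confluence (horizontal, log2) against growing, low-serum and senescent cells (vertical, log2). Coloured points were called in that state, red if they part the classes at confluence; in growing cells 74 of 101 do and all lie in the 2 quadrants of like direction.

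The class genes also place the classes among the states. For each gene, the mean of another group was set on the scale from shp130 and vector at confluence to shRB and shp107 at confluence. In low serum all 4 groups lay nearer the shRB and shp107 class for 84.4% to 91.1% of the class genes. In growing cells the share was 80.1% of higher and 88.5% of lower class genes in shRB, 75.4% and 84.9% in shp107, 58.6% and 68.8% in shp130, and 68.1% and 75% in vector cells. In senescent cells it was 26.7% to 35.7% of the higher and 49.8% to 57.8% of the lower class genes, with little spread between hairpins. Confluent shp130 and vector cells thus shared low levels of genes such as TNFSF4 (3.46 to 3.99 in senescent cells) and high levels of genes such as CXCL5 (11.92 to 12.69 in senescent cells) with senescent cells of all hairpins. Other genes did not follow. PDK4 had 3.49 to 3.76 in senescent shRB and shp107 cells, 4.37 and 4.83 in senescent shp130 and 6.12 and 5.56 in senescent vector cells, below the 8.99 to 11.03 of the confluent shp130 and vector arrays. ADAMTS5 was at 9.22 to 10.61 in all low-serum groups, near the 10.09 to 11.55 of confluent shp130 and vector cells and not the 5.30 to 6.33 of confluent shRB and shp107 cells.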

How the data were processed

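The deposited values are log2 values per probe set and array, which the authors computed with GCRMA, per the submitters' processing notes. Joint normalisation of all 38 arrays is not stated in the sources used here. Per the labels' protocols, biotin-labelled cRNA was made from 1 µg of total RNA. The values were used as deposited, and all sample columns were used.

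Of 54613 probe sets, 41091 named 1 gene, 1801 several and 11721 none in the platform annotation. Each of 19775 genes was represented by its probe set with the highest mean. The 8511 genes tested exceeded a log2 value of 5 on 2 or more arrays among the 32 of experiment 1.

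At confluence, means of the 4 and 4 arrays were compared without a test; a class gene differs at least 2-fold without overlap. The 10 tested comparisons used limma 3.58.1 in R 4.3.3 (lmFit, contrasts.fit, eBayes; 1 mean per group; Benjamini-Hochberg over 8511 genes; called at an adjusted p under 0.05). The 2 comparisons within a class used all 32 arrays (16 residual and 4.85 prior degrees of freedom), the others the 24 arrays outside confluence (12 and 5.1). The fit was tested on simulated data. Errors after ± are SE.

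The members, the 27 gene lists and the markers were chosen with earlier results of these data known. Named genes are the hairpin targets, the 15 widest class differences each way, up to 5 per list without overlap, up to 8 called genes each way within a class and up to 5 each way per other state; list members given by their difference alone were chosen after their values were seen. Alternatives were quantile normalisation, other filters, the mean of all probe sets, an intensity trend, a replicate block, other array sets, leaving out each array and, added later, single hairpin pairs. Promoters were matched by symbol (7123 of the genes tested), and motifs were searched on both strands. Python 3.11.15, numpy 2.4.6, pandas 2.3.3 and matplotlib 3.10.9 were used.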

Additional observations from a re-analysis of the deposited data

Results flagged for a closer look

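The genes given here had a class difference (shRB and shp107 minus shp130 and vector) that differed between 2 culture states by the interaction term of the limma fit on the 24 arrays outside confluence. Values are the senescent minus the growing class difference on the log2 scale. Several of these genes were named for an extreme class difference in growing or in senescent cells. That choice favoured the sign and size of their values here. No explanation was weighed, and the mean over both hairpins joins unlike groups in senescent cells.

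The inflammatory genes named here had a higher class difference in senescent than in growing cells. The interaction was 4.08 for CXCL1, 3.28 for CXCL8, 3.53 for IL6, 1.79 for CXCL2, 1.17 for CXCL3, 0.97 for CXCL5, 2.94 for CXCL6, 4.25 for CXCL10 and 2.60 for IL11. It was 2.53 for IL13RA2, 3.73 for MMP3, 2.79 for PTGS2, 2.17 for EREG and 1.67 for KYNU, which encodes kynureninase. RGS5 had 3.55 and COL4A6 had 2.25. CXCL5 was at background in all growing groups.

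MEST had -1.97, MATN2 -1.48, OXTR -2.42 and PDK4 -1.14. Epidermal barrier genes also went that way, LCE3D with -3.72, LCE2B with -2.26 and CRCT1 with -2.55, as did the cell cycle gene CKS2 with -2.40. Higher interactions were found for the gap junction gene GJB2 (3.85), SERPINB4 (3.27), the heterochromatin gene CBX5 (3.56) and TM6SF1 (2.03), none of which met the class rule at confluence. The low-serum minus growing class difference was 1.69 for EREG, 1.59 for GDF15, 1.71 for ID4, -1.44 for POSTN and -1.77 for the noncoding gene LINC01279.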

How the results depend on the processing

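Of 447 alternative values of named genes, 391 kept their side of the threshold and 56, over 11 genes and comparisons, lost the call. Of 324 alternative list medians 7 moved by more than the spread between replicates, and 11 in 5 lists (amino acid and ER stress, cholesterol, complement, lysosome, mitosis) changed sign, all from a median between -0.08 and 0.12. The causes of these moves were not tested. With 2 arrays per group, calls of small counts rest on single arrays, and signal near background limits the lower side of the widest differences.

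Genes that part the classes numbered 524 with the mean of all probe sets and 269 at 4-fold. Genes called between shRB and shp107 at confluence numbered 5 with quantile normalisation (3 of them higher, against 0 as reported), and 1 with the mean of all probe sets or the confluent arrays alone. Between shp130 and vector they numbered 4 with quantile normalisation (2 of them higher, against 0) and 1 with a filter above 6, the mean of all probe sets, an intensity trend or the confluent arrays alone. In growing cells the fit on all 32 arrays gave 62 calls, 44 of them class genes of like direction, and the pairs shRB against vector and shp107 against shp130 gave 40 and 25 (23 and 21 class genes), with 0 and 0 for shp107 against vector. In low serum no filter gave 4 calls and quantile normalisation 14 (42.9% higher, against 28.6%), of which 8 were class genes of like direction. The low-serum pairs gave 27 (shRB against shp130) and 13 (shp107 against vector) calls, with 1, 3, 8 and 1 class genes of like direction over the 4 pairs. In senescent cells shp107 against vector gave 691 calls and 50 class genes, and shRB against vector 51 class genes. Between shRB and shp107, growing cells gave 2, 7, 2 and 2 calls without a filter, with quantile normalisation, the mean of all probe sets and an intensity trend. Low-serum cells gave 2 without a filter and 2 with the mean of all probe sets. The class difference between low serum and growing cells gave 2 calls with the mean of all probe sets and 1 with all 32 arrays, and that between senescent and growing cells 221 with all 32 arrays.

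Replicate numbers are the only link between groups: deviations of same-numbered arrays correlated at -0.21 to 0.315 among confluent groups, 0.315 for shRB with shp107 and -0.21 for shp130 with vector. A fit with the replicate number as a block gave 2 and 1 calls within the classes at confluence. It gave 108, 9 and 1405 calls for the class difference in growing, low-serum and senescent cells, and 8 between shRB and shp107 in low serum.

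Leaving out each array in turn gave 852 to 1093 class genes, 1 to 7 calls between shRB and shp107 and 3 to 223 between shp130 and vector at confluence. The class difference gave 44 to 137 calls in growing cells, 3 to 41 in low serum and 813 to 1942 in senescent cells, with 34 to 98, 3 to 13 and 62 to 97 class genes of like direction. Between shRB and shp107 the ranges were 1 to 5, 2 to 64 and 705 to 2839 in growing, low-serum and senescent cells. Differences between states ranged over 4 to 30 calls for low serum and 170 to 938 for senescent against growing cells. The majority direction of calls turned in several cases. In senescent cells it was 886 higher and 1056 lower without the first shp107 array and 263 and 428 for shp107 against vector alone, beside 812 and 532. For senescent against growing cells it was 350 and 588 without the same array, beside 233 and 104. In low serum it was 30 and 11 without the first shRB array, beside 2 and 5, and between shRB and shp107 3 and 44 without the second shRB array, beside 4 and 1. Without the first confluent vector array, shp130 against vector gave 130 and 93, beside 0 and 2. Counts that were near even (class genes at confluence, shRB against shp107 in growing and senescent cells, low serum against growing cells) also changed majority under some alternatives. The causes were not tested.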

Other observations

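Smaller gene lists also held class genes at confluence, again as a description with no test. They are read against the 10.1% of all genes that parted the classes. In the RAS and ERK list 5 of 19 genes were lower and none higher (median -0.69). SPRY1, a feedback inhibitor of receptor tyrosine kinase signalling, had 5.07, 4.75, 5.08 and 4.66 in shRB and shp107, against 8.96, 7.93, 8.01 and 8.77 in shp130 and vector. LIF, an interleukin 6 family cytokine, differed by -2.59, SPRY4 by -2.26 and ETV1 by -1.92. The phosphatase gene DUSP6 differed by -0.81, and its arrays overlapped between classes.

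All 7 genes of the metallothionein list, metal-binding proteins and the zinc transporter SLC30A1, had differences below 0 (median -0.62), and 1 met the class rule. This was MT1F, with 9.55 to 10.18 in shRB and shp107 and 10.72 to 12.11 in shp130 and vector. The probe sets of MT1F, MT1G, MT1H, MT1X and MT2A are of a kind that can bind related transcripts. The 7 differences are thus not separate readings. The count of 1 is near the share over all genes and is no result about the list. Of 27 hypoxia and glycolysis genes 3 were lower and none higher: PFKFB3 by -1.26, PFKFB4 by -1.08 and SLC2A3 by -1.03. This share is near the 10.1% over all genes and is no result about the list. PFKFB4 was under 5 on all confluent arrays (3.21 to 4.95). Of 15 circadian and growth arrest regulators 3 were lower and none higher: PDK4 by -6.47, KLF9 by -2.20 and BHLHE41 by -1.98. Of 7 interferon genes 2 were higher, IFIT3 by 1.70 and IRF9 by 1.33.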
